A study of Mus musculus with 9 samples.

Results

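Toll-like receptors are membrane proteins with which myeloid cells sense microbial molecules, and 8 of their genes (*Tlr1*, *Tlr2*, *Tlr4*, *Tlr6*, *Tlr7*, *Tlr8*, *Tlr9* and *Tlr13*) were taken here together with *Cd14* and *Ly96*, whose products hand lipopolysaccharide (LPS) to TLR4. These genes were picked by name, as the 10 rows among 54347 in the count table whose symbol matched. The rule used no measured value, but the set was put together with earlier results of these data known. *Tlr3*, *Tlr5*, *Tlr11* and *Tlr12*, the other mouse Toll-like receptor genes that were looked up, are given beside them. TLR4 with its partner MD-2, the product of *Ly96*, binds LPS at the cell surface, TLR2 pairs with TLR1 or TLR6 on bacterial lipopeptides, and TLR7, TLR8, TLR9 and TLR13 sense nucleic acids in endosomes. All of these receptors signal through the adaptor MyD88, TLR4 also uses TRAM and TRIF, and the endosomal receptors depend on the chaperone UNC93B1 to reach their compartment. Monocytes, macrophages and neutrophils carry CD14 and many of these receptors, and PU.1, the transcription factor encoded by *Spi1*, is a well-known regulator of myeloid receptor genes.

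Poly-A RNA was sequenced from 3 mouse lines with 3 libraries each, and total counts per library ran from 20331064 to 28588718. Hox-WT is a wild-type progenitor line and Hox-URE a progenitor line homozygous for the deletion of the URE, an upstream enhancer of *Spi1*. Both were immortalized from c-Kit+ bone marrow progenitors with a Hoxb8 fusion that works while estradiol is in the medium. URE-AML, called B22 in the labels and described there as blast-like, carries the same homozygous deletion and was grown out of leukemic blasts of a mouse. The sources differ on that mouse, which the methods describe as lacking the URE and the series record as a HoxURE mouse. The labels give 1 medium for all lines, with serum, IL-3, IL-6, SCF and estradiol, and name no LPS or other Toll-like receptor ligand. Hox-WT is the only line with an intact URE. Each line stands alone for its genotype and stage, so that every difference below is one between lines. Whether the libraries of a line go back to separate cultures is not stated in the labels, so p-values measure only the spread between libraries, which may be technical. In bulk RNA, fewer expressing cells and less RNA per cell cannot be told apart.

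*Spi1* checked the labels first. It stood at 110, 101 and 96.6 CPM (counts relative to library total, corrected by TMM factors) in Hox-WT, at 0.0364, 0.0414 and 0 in Hox-URE and at 2.50, 5.52 and 6.35 in URE-AML. The lines did not overlap, and the summed count of Hox-URE was 2. The ratio of Hox-WT to Hox-URE was 3640, with an exact 95% counting interval of 1010 to 30100, and *Spi1* was 21.7-fold higher in Hox-WT than in URE-AML (19.4 to 24.3). *Hoxb8* had 0 counts in every URE-AML library.

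The lines also differed in markers of myeloid cell types, and these values stand beside the receptor results. Here and below, called genes are those with a fold change above 1.5 and an adjusted p below 0.05 in edgeR's quasi-likelihood test. Neutrophil markers summed to 5670 to 9090 CPM for Hox-WT, 2620 to 4010 for Hox-URE and 11500 to 26300 for URE-AML, with *Ltf* and *S100a9* at 0 in Hox-URE and *Ly6g* at 0 in Hox-WT. The Hox-URE sum was mostly *Ctsg*, at a mean of 3325 CPM, while 10 of the 12 markers were called lower there than in Hox-WT (median log2 fold change -4.69), and *Mpo* averaged 5.04 CPM against 5042. Monocyte and macrophage markers summed to 386 to 531, 843 to 947 and 617 to 1220 CPM, and the Hox-URE sum was mostly *Ccr2*, at 885 ± 49.8 CPM (SD, n = 3), while 7 of the 10 tested markers were called lower and 1 higher there than in Hox-WT (median -6.81). The URE-AML sum was mostly *Ly6c2* and *F13a1*, at means of 671 and 238 CPM, while 5 of the 10 were called lower and 3 higher than in Hox-WT (median -1.70), and *Adgre1* averaged 3.73 CPM against 274. *Fcgr1* and *Ms4a6c* were at 0 in Hox-URE and URE-AML, as was *Klf4*, which had only 1, 2 and 2 counts in Hox-WT. *Csf1r*, *Fcgr1* and *Ms4a6c* had enough counts to be tested through Hox-WT alone, so lower calls were built into their entry. With at least 10 counts required in every library, 3 monocyte and macrophage markers were tested. Hox-URE then had 1 higher and 1 lower than Hox-WT, and URE-AML 2 higher and 0 lower. Of neutrophil markers 5 were tested, with 1 higher and 4 lower in Hox-URE. Basophil and mast cell markers summed to 483 to 838, 1610 to 5890 and 31.4 to 62.8 CPM. The dendritic cell list held *Siglech*, *Ccr9* and *Cd209a* at 0 in all 3 lines and summed to 150 to 187, 102 to 117 and 103 to 108 CPM. Sums for the B cell list were 37.6 to 50.5, 34.5 to 41.2 and at most 0.19 CPM, with *Ms4a1* at 0 in all 3 lines. The T and NK cell list summed to 31.5 to 47.5, 10.7 to 18.4 and 6.95 to 25.4 CPM with *Cd3e*, *Cd3g* and *Ncr1* at 0 throughout. Erythroid and megakaryocyte markers summed to at most 8.25, 48.5 and 9.27 CPM, and progenitor markers to 1810 to 2070, 948 to 1440 and 259 to 294 CPM. The part of these marker differences in the results below was not tested.

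Positions of 9 of the 10 genes are given as in GENCODE M21 on GRCm38, the build named in the labels, and all 10 are annotated as protein coding. *Tlr1* (chr5:64924679-64933563, minus strand) and *Tlr6* (chr5:64952031-64960097, minus strand) are neighbours, as are *Tlr8* (chrX:167242696-167264329, minus strand) and *Tlr7* (chrX:167304929-167330558, minus strand). *Tlr13* lies elsewhere on the same chromosome at chrX:106143204-106160493, *Tlr2* at chr3:83836272-83841767, *Tlr4* at chr4:66827584-66930284, *Tlr9* at chr9:106222598-106226883 and *Ly96* at chr1:16688051-16709611. *Tlr1* and *Tlr6* transcripts had 607 distinct 31-base words in common, 18.3% of the words of *Tlr1* and 16.4% of those of *Tlr6*. No other pair among the 10 had a word in common. Counts of *Tlr1* and *Tlr6* are therefore uncertain to the extent that reads from their common stretches were divided between them.

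Promoter windows from RefSeq (GRCm38.p6) were at hand for 6 of the 10 genes, *Tlr1*, *Tlr2*, *Tlr6*, *Tlr8*, *Tlr9* and *Tlr13*, and were searched on both strands for 3 motifs that bear on this design. The motifs and the 3 windows shown were chosen after the expression values were seen. The core of a PU.1 site, GAGGAA, lay in the windows of 4 of the 6 genes (*Tlr1*, *Tlr8*, *Tlr9* and *Tlr13*) and in those of 31.3% of 27025 genes, some of which, like *Tlr1* and *Tlr6*, have several windows (28.3% of 32851 windows of that length). An extended core that includes it, GAGGAAGT, lay in those of *Tlr1* and *Tlr9*, against 3.69% of all genes (3.2% of windows). The NF-kB site, bound by the factors that the pathway activates, matched only in *Tlr2* among the 6, against 9.55% of all genes (8.46% of windows). *Tlr2* is shown because it was the matched gene with the highest counts in URE-AML and carried the NF-kB matches, and *Tlr1* and *Tlr9* are shown because theirs held the extended core. Each sequence runs from 250 bases before the start to 30 bases after it on the strand of the gene, with NF-kB matches in capitals for *Tlr2* and the PU.1 core or its reverse complement in capitals for the other two.
Tlr2, chr3:83841579-83841858, minus strand: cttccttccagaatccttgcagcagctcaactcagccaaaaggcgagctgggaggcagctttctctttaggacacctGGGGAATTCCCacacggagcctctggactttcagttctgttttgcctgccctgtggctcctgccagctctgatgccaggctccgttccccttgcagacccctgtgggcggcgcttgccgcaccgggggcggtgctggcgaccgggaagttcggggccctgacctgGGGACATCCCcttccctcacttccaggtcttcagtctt
Tlr1, chr5:64933529-64933808, minus strand: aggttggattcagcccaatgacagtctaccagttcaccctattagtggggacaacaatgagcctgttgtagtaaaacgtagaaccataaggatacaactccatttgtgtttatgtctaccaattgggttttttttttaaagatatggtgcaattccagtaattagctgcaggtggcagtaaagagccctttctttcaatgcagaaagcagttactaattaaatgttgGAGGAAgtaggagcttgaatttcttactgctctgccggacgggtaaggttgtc
Tlr9, chr9:106222348-106222627, plus strand: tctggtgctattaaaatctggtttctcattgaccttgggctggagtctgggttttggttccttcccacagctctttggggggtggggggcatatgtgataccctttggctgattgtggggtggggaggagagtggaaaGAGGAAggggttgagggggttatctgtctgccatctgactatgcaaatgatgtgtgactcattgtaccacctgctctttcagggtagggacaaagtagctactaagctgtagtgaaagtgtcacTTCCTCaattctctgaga
The first capital run of *Tlr2* holds overlapping matches that begin 173 and 172 bases before the start, and the second begins 8 bases before it. In *Tlr1* the core begins 23 bases before the start, and in *Tlr9* it begins 112 bases before and, on the opposite strand, 12 bases after the start. A match describes these letters only and says nothing of binding.

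Levels per length, in CPM per kilobase of exon, were led by *Cd14* in each line. In Hox-WT, *Cd14* stood at 35.7 ± 11.7 (SD, n = 3), above *Tlr4* at 5.09 ± 0.954, and *Ly96* at 1.65 ± 0.411 overlapped *Tlr6* at 1.55 ± 0.431. *Tlr2* followed at 0.46 ± 0.124, and *Tlr1*, *Tlr9*, *Tlr7*, *Tlr13* and *Tlr8* were all under 0.1. In Hox-URE the neighbours among the first 5 overlapped, from *Cd14* at 3.02 ± 0.12 through *Tlr4*, *Ly96* and *Tlr2* to *Tlr6* at 1.3 ± 0.405. URE-AML had *Cd14* at 109 ± 59.2, then *Tlr4* at 7.8 ± 1.32, *Tlr7* at 7.46 ± 2.36 and *Tlr2* at 4.95 ± 2.45, which overlapped their neighbours, and *Tlr6* and *Ly96* below 1. *Cd14* made up 76.9 to 83.5% of the summed CPM per kilobase of the 10 genes for Hox-WT, 22.9 to 38.8% for Hox-URE and 78.1 to 85.8% for URE-AML. That sum ran from 34.9 to 58.8 for Hox-WT, from 8.13 to 12.9 for Hox-URE and from 79.3 to 204 for URE-AML, with no overlap between the lines.

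**Figure D1:**
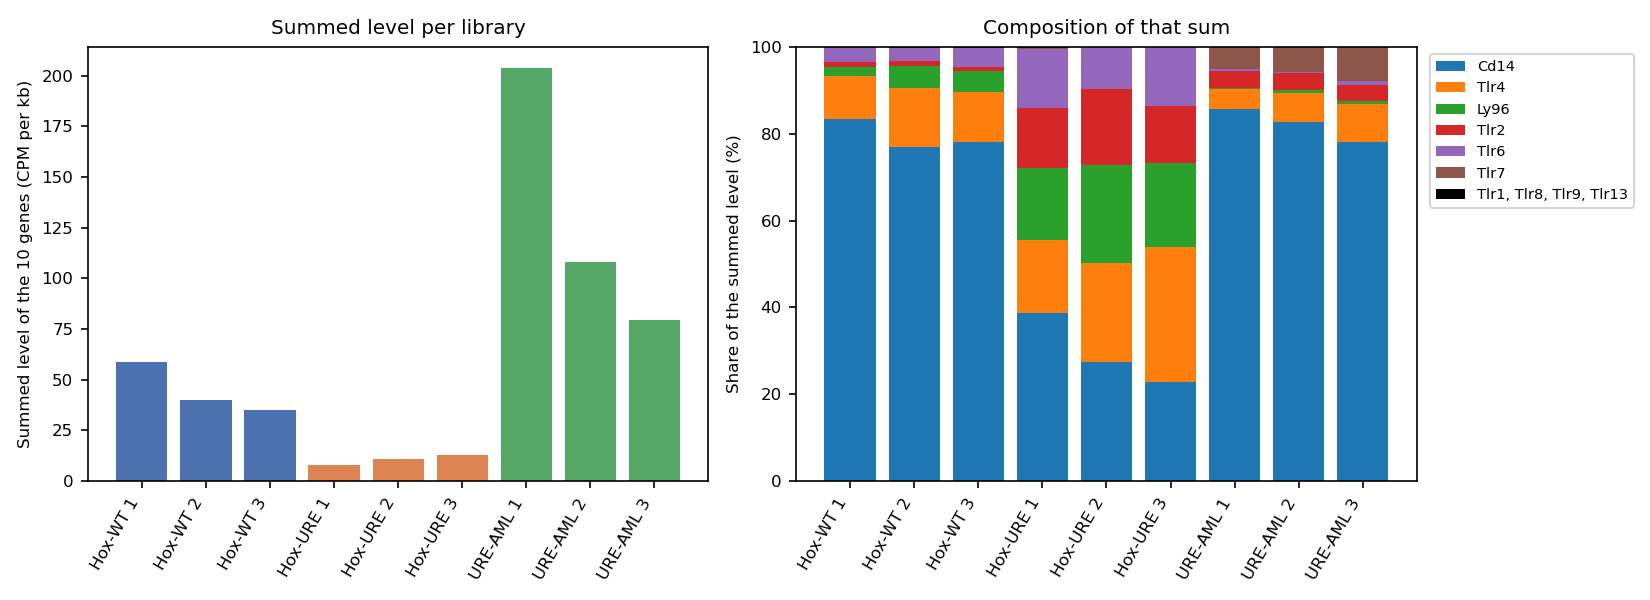
Left, the summed level of the 10 genes in each library, in CPM per kilobase of exon (1 bar a library, from 0). Right, the percentage of that sum held by each gene, where *Cd14* takes 22.9 to 38.8% in Hox-URE and over 76% in every library of the other lines.

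Of the 10 genes, 6 had enough counts to be tested, with p adjusted by Benjamini-Hochberg over 13082 genes. For Hox-URE against Hox-WT, which asks what loss of the URE in progenitors goes with, 3 of the 6 were called, 1 higher (*Tlr2*) and 2 lower (*Tlr4* and *Cd14*). Over all genes tested, 37.2% were called, 21.3% higher and 15.9% lower. Set against Hox-WT, URE-AML had 5 of the 6 called, *Cd14*, *Tlr2* and *Tlr7* higher and *Tlr6* and *Ly96* lower, beside 43.2% of all genes (23.0% higher and 20.2% lower). URE-AML against Hox-URE, 2 lines that both lack the URE, also gave 5 of the 6, *Tlr4*, *Cd14*, *Tlr2* and *Tlr7* higher and *Ly96* lower, beside 42.7% of all genes (20.3% higher and 22.4% lower). Median log2 fold changes of the 6 were -0.62, 1.11 and 1.63 in that order, and that of all tested genes was 0 in each comparison. *Tlr7* passed the filter on low counts through URE-AML alone, so a difference was built into its entry. The counts and medians above include it. With at least 10 counts required in every library, which dropped *Tlr7*, 5 of the 10 genes were tested. Called were then 1 higher and 2 lower, 2 higher and 2 lower, and 3 higher and 1 lower, in the same order. The 3 comparisons use the same libraries in pairs.

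**Figure D2:**
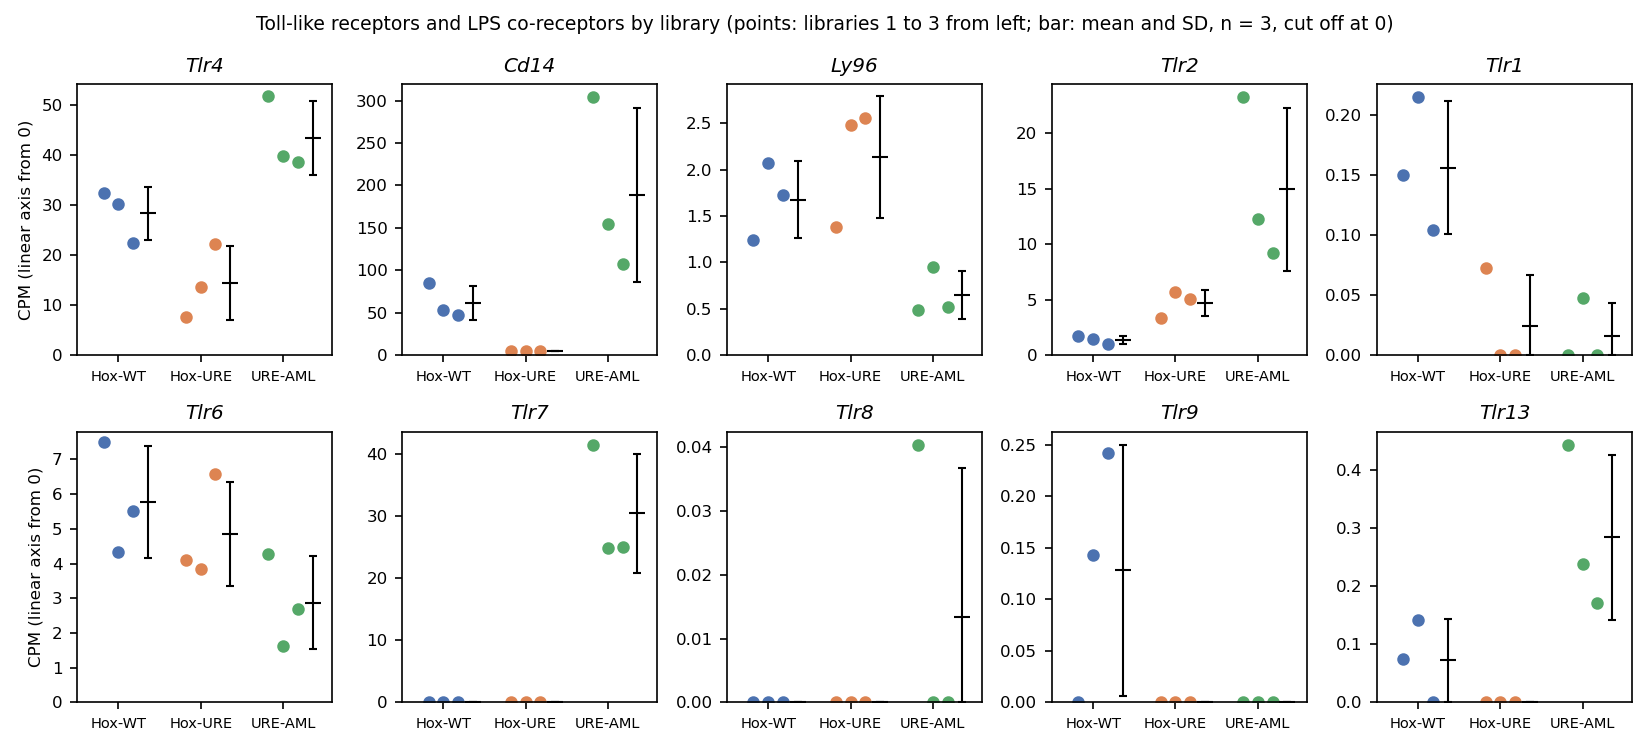
CPM of each of the 10 genes in each library on linear axes from 0 that differ between panels (points are libraries 1 to 3 of each line from left to right, bars the mean and SD, n = 3, cut off at 0). *Cd14* lies at 5.10 to 5.46 in Hox-URE and at 107 to 304 in URE-AML, and *Tlr7* is near 0 in both Hox lines.

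The LPS receptor genes did not move as a unit. *Cd14*, the surface protein that passes LPS to TLR4, stood at 85.0, 53.4 and 47.3 CPM in Hox-WT, 5.46, 5.10 and 5.11 in Hox-URE and 304, 155 and 107 in URE-AML. The 3 lines were fully separated, with Hox-URE lowest. *Cd14* fell by 3.56 ± 0.39 on the log2 scale (SE) in Hox-URE against Hox-WT (edgeR adjusted p = 4.01e-05), while in URE-AML it was 1.61 ± 0.34 higher than in Hox-WT (adjusted p = 0.00237) and 5.17 ± 0.41 higher than in Hox-URE (adjusted p = 2.9e-06). URE-AML library 1 had the highest value and also the lowest neutrophil marker sum of its line, 11500 CPM against 17800 and 26300. Its sums of basophil and mast cell, B cell, T and NK cell, erythroid and megakaryocyte, and progenitor markers were lowest too. The monocyte and macrophage sum (1010 against 617 and 1220) and the dendritic cell sum (105 against 108 and 103) lay between. Whether any of these goes with *Cd14* was not tested. Without URE-AML library 1, the difference from Hox-WT was 1.08 (adjusted p = 0.00461), and the call held.

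*Tlr4*, the signalling receptor for LPS, measured 32.4, 30.2 and 22.3 CPM in Hox-WT, 7.54, 13.7 and 22.2 in Hox-URE, and 51.8, 39.7 and 38.5 in URE-AML. Every URE-AML library lay above every other library, while the highest Hox-URE library came within 0.1 CPM of the lowest Hox-WT library. *Tlr4* fell by 0.98 ± 0.32 on the log2 scale in Hox-URE against Hox-WT (edgeR adjusted p = 0.0259) and exceeded the Hox-URE level by 1.59 ± 0.32 in URE-AML (adjusted p = 0.00176). The call for Hox-URE was lost, with a fall of similar size, without Hox-WT library 1 (-0.87, adjusted p = 0.078), Hox-WT library 2 (-0.93, 0.0678) or Hox-URE library 2 (-0.95, 0.0728). For URE-AML against Hox-WT the log2 difference of 0.62 ± 0.31 was not called (adjusted p = 0.117). It was called without Hox-URE library 1 (adjusted p = 0.0244) or Hox-URE library 3 (0.0422), with the 6 libraries of both lines alone (0.00981) and with no filter on low counts (0.0468). *Tlr4* rose over Hox-URE libraries 1, 2 and 3, as did the basophil and mast cell marker sum, at 1610, 3520 and 5890 CPM. The erythroid and megakaryocyte sum (16.8, 34.4 and 48.5) and those of neutrophil, B cell and progenitor markers also rose. The T and NK cell sum fell (18.4, 15.9 and 10.7). Monocyte and macrophage (843, 947 and 888) and dendritic cell sums (102, 117 and 117) showed no steady rise. Whether the spread of *Tlr4* goes with any of these was not tested.

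*Ly96*, the gene of MD-2, ran the other way between lines. It was low throughout, at 1.24, 2.07 and 1.73 CPM in Hox-WT, 1.38, 2.49 and 2.55 in Hox-URE and 0.485, 0.951 and 0.515 in URE-AML. The Hox lines overlapped, and all URE-AML libraries lay below both. *Ly96* fell by 1.37 ± 0.40 on the log2 scale in URE-AML against Hox-WT (edgeR adjusted p = 0.0133) and by 1.72 ± 0.40 against Hox-URE (adjusted p = 0.00402), where *Cd14* and *Tlr4* were higher. Hox-URE and Hox-WT differed by 0.34 ± 0.37 (adjusted p = 0.46). Counts were 12 to 60 per library. The call against Hox-WT was lost, with a fall of similar size, without Hox-WT library 2 (-1.2, adjusted p = 0.0508), URE-AML library 1 (-1.2, 0.0505) or URE-AML library 3 (-1.23, 0.0504).

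*Tlr2*, which pairs with TLR1 or TLR6, was lowest in the line with an intact URE. It measured 1.69, 1.5 and 0.969 CPM in Hox-WT, 3.39, 5.68 and 5.06 in Hox-URE and 23.3, 12.3 and 9.23 in URE-AML. The 3 lines did not overlap. *Tlr2* was 1.76 ± 0.39 higher on the log2 scale in Hox-URE than in Hox-WT (edgeR adjusted p = 0.00329), 3.43 ± 0.39 higher in URE-AML than in Hox-WT (adjusted p = 3.51e-05) and 1.67 ± 0.35 higher there than in Hox-URE (adjusted p = 0.00232). URE-AML library 1 again had the highest value, and without it the last difference was 1.2 (adjusted p = 0.00802). The promoter window of *Tlr2* shown above holds NF-kB matches and no GAGGAA, and other forms of a PU.1 site were not searched for. Whether these letters bear on the level of *Tlr2* was not tested.

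The partners of TLR2 did not share this pattern. *Tlr6* measured 7.50, 4.32 and 5.50 CPM in Hox-WT, 4.12, 3.85 and 6.59 in Hox-URE and 4.28, 1.62 and 2.70 in URE-AML, with overlap between Hox-WT and Hox-URE and a URE-AML library that reached into the Hox-URE range. It fell by 1.00 ± 0.37 on the log2 scale in URE-AML against Hox-WT (edgeR adjusted p = 0.0384). This call was lost without Hox-WT library 1 (-0.77, adjusted p = 0.137), Hox-WT library 3 (-1.05, 0.0662), URE-AML library 2 (-0.72, 0.119) or URE-AML library 3 (-0.96, 0.0969). Hox-URE and Hox-WT differed by -0.26 ± 0.36 (adjusted p = 0.578), and URE-AML and Hox-URE by -0.75 ± 0.37 (adjusted p = 0.109). The latter was called without URE-AML library 1, at -1.15 (adjusted p = 0.0277). *Tlr1* had 4, 6 and 3 counts in Hox-WT, 2, 0 and 0 in Hox-URE and 0, 1 and 0 in URE-AML, which was too few for a test. The ratio of Hox-WT to Hox-URE was 5.53 with a counting interval of 1.25 to 50.5, and that of Hox-WT to URE-AML was 10.7 (1.61 to 457). Such intervals cover counting error only.

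Of the endosomal receptors, *Tlr7*, the sensor of single-stranded RNA, had the strongest signal, and it lay in URE-AML. It had 1029, 522 and 582 counts in the URE-AML libraries, 3, 1 and 2 in Hox-WT and 1, 0 and 0 in Hox-URE. The URE-AML counts correspond to 41.6, 24.8 and 25.0 CPM, and every Hox library was at or under the floor of 3 counts, which stood at 0.104 to 0.153 CPM. The ratio of URE-AML to Hox-WT was 430 (counting interval 197 to 1170) and that to Hox-URE 2200 (394 to 86800). These are given without a p because *Tlr7* passed the filter only through URE-AML. Hox-URE and Hox-WT did not differ detectably at this depth (edgeR adjusted p = 0.167).

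*Tlr8*, the neighbour of *Tlr7* on the X chromosome, did not share its level. It had 1 count in URE-AML library 1 and 0 in each of the other 8 libraries. *Tlr13*, a mouse sensor of bacterial ribosomal RNA, had 2, 4 and 0 counts in Hox-WT, 0 in each Hox-URE library and 11, 5 and 4 in URE-AML. The URE-AML level was at least 2.21-fold higher than that of Hox-URE, from a floor of 3 counts per library, and the ratio to Hox-WT was 4.03 (1.56 to 12.3). *Tlr9*, the sensor of unmethylated CpG DNA, had 0, 4 and 7 counts in Hox-WT and 0 in the 6 other libraries, which is near the floor. With no filter on low counts, *Tlr13* was called in URE-AML against Hox-URE (edgeR adjusted p = 0.00544), and no other comparison of these 3 genes or *Tlr1* was called.

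**Figure D3:**
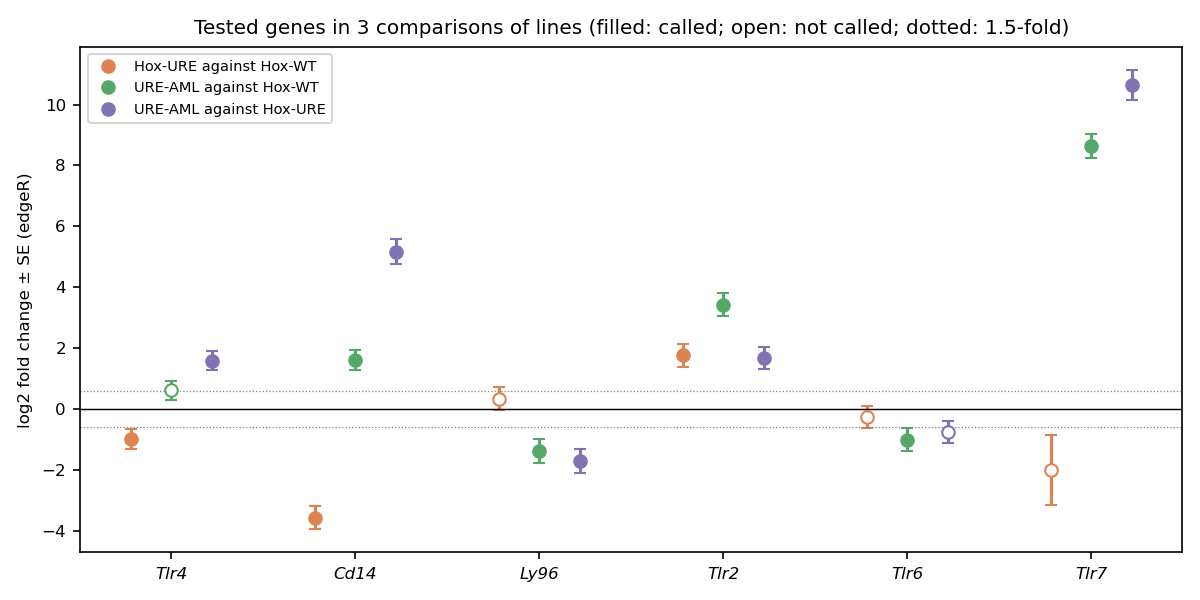
Log2 fold change with its SE for the 6 tested genes in the 3 comparisons of lines (edgeR, n = 3 libraries per line), with filled points called, open points not called and dotted lines at a fold change of 1.5. *Tlr2* lies above 0 in all 3 comparisons, *Cd14* changes sign between the first and the others, and *Ly96* falls in both comparisons with URE-AML.

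Among the other Toll-like receptor genes, *Tlr5*, the flagellin receptor, had 159, 243 and 155 counts in Hox-WT, or 5.96, 8.68 and 5.36 CPM, and 1 count in all in each of the other lines. The ratio of Hox-WT to Hox-URE was 474 (84.8 to 18800) and to URE-AML 460 (82.3 to 18200), given without a p because *Tlr5* passed the filter on low counts only through Hox-WT. *Tlr12*, which takes part in sensing profilin of protozoa, stood at 0.714 ± 0.326 CPM in Hox-WT and 0.837 ± 0.252 in Hox-URE (edgeR adjusted p = 0.714) and had 0 counts in URE-AML, at least 5.46-fold and 6.4-fold lower. *Tlr3* had 3 counts in 1 Hox-WT library and *Tlr11* had 0 in all 9.

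The 84 other genes of the pathway, listed by role, give the surroundings of these receptors, and 76 of them were tested. Against Hox-WT, Hox-URE had 40 called, 22 higher and 18 lower, which became 17 higher and 21 lower when libraries were scaled by their totals alone. These 40 were 52.6% of those tested, beside 37.2% of all genes. URE-AML had 41 called against Hox-WT (20 higher and 21 lower), 53.9% beside 43.2% of all genes. Against Hox-URE it had 29 (14 higher and 15 lower), 38.2% beside 42.7% of all genes. These shares of all genes also stand beside the counts of the lists by role. With at least 10 counts required in every library, which takes out genes near 0 in a line, 62 were tested. The calls were then 21 higher and 8 lower, 19 higher and 11 lower, and 12 higher and 9 lower in the same order. The medians of the 76 were 0.06, 0.10 and 0.04 on the log2 scale, and were the same with genes at 0 in a line set to their bound. Scaling by totals alone moved the median of all tested genes to -0.08, 0.01 and 0.11 in the 3 comparisons.

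**Figure D4:**
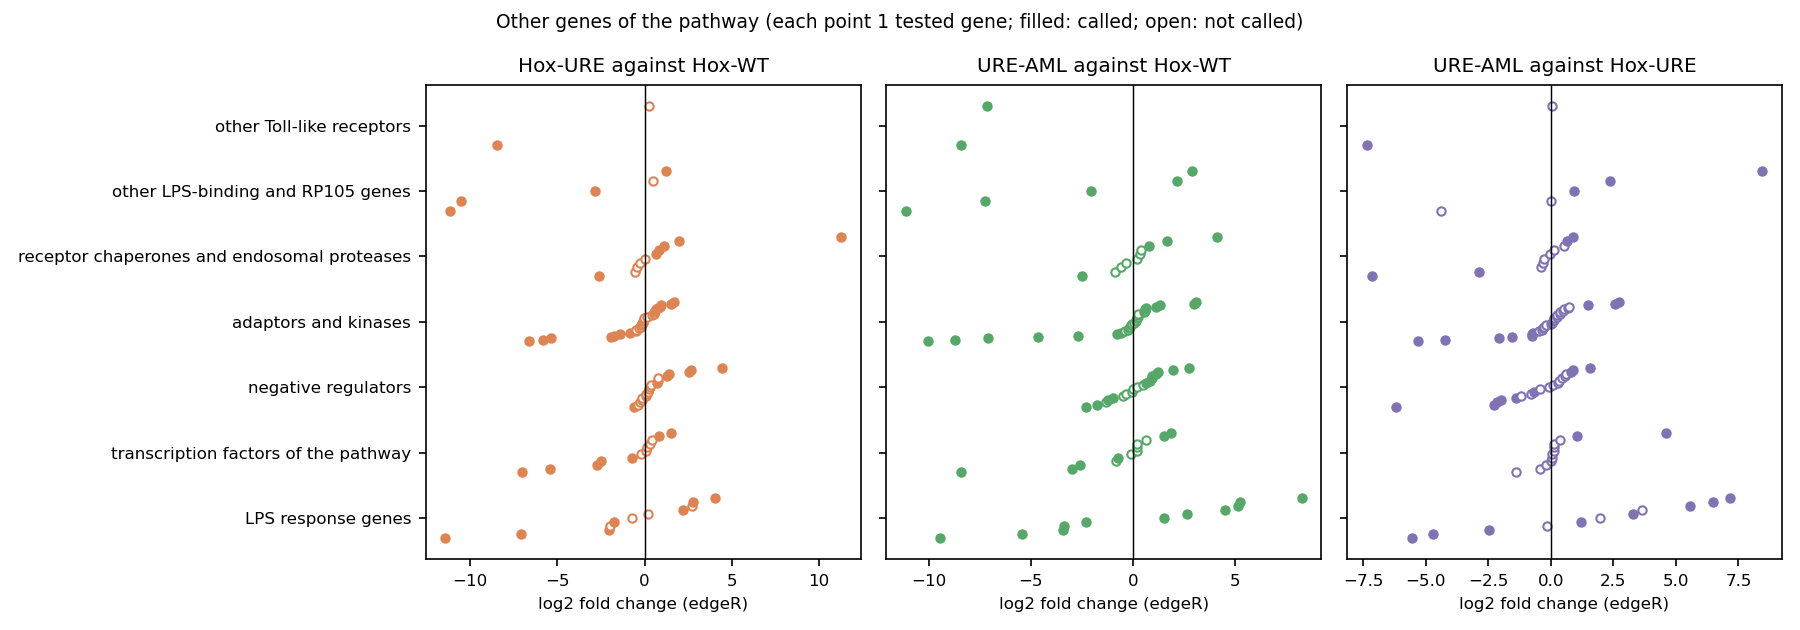
Log2 fold change (edgeR, x axes that differ between panels) of each tested gene of the pathway lists and of the LPS response list in the 3 comparisons, 1 point a gene, filled where called and open where not. Called genes of most lists lie on both sides of 0.

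Genes that bind LPS or belong to the RP105 complex split in direction where genes near 0 in a line were counted. Of the 5 tested, Hox-URE had 1 higher and 3 lower than Hox-WT. URE-AML had 2 higher and 3 lower than Hox-WT, and 3 higher than Hox-URE. With at least 10 counts required in every library, 2 were tested (*Lbp* and *Itgb2*), with 1, 2 and 2 higher and 0 lower. *Cd180*, the gene of RP105, a TLR4-like receptor best known in B cells, stood at 7.80, 15.0 and 10.8 CPM in Hox-WT and at 0 counts in the 6 other libraries. The lower bound of its fall was 86.8-fold for Hox-URE and 85.6-fold for URE-AML. *Ly86*, the gene of its partner MD-1, averaged 0.771 ± 0.24 CPM in Hox-WT and 0.11 ± 0.103 in Hox-URE and, with 0 counts, was at least 5.89-fold lower in the URE-AML libraries. Both genes passed the filter only through Hox-WT, where they were high, so that no p is given for them. *Lbp*, which codes for the serum protein that carries LPS to CD14, was higher in both deletion lines, at 43.8 ± 13.5 CPM in Hox-URE (edgeR adjusted p = 0.016) and 82.5 ± 38.3 in URE-AML (adjusted p = 0.000611) against 18.7 ± 4.13 in Hox-WT. The call for Hox-URE was lost without Hox-URE library 3 (0.98, adjusted p = 0.057), Hox-WT library 1 (1.1, 0.0599) or Hox-WT library 3 (1.16, 0.0553). The integrin chain *Itgam* had 0 counts in Hox-URE, at least 56.6-fold below Hox-WT, and fell by 2.06 ± 0.51 on the log2 scale in URE-AML (adjusted p = 0.00827), with -2.67 without URE-AML library 3. Its partner *Itgb2* was not called in Hox-URE (log2 0.49 ± 0.20, adjusted p = 0.0671, or 0.65 and called without Hox-URE library 1) and rose from 30.2 ± 4.21 CPM in Hox-WT to 220 ± 51.2 in URE-AML (log2 2.87 ± 0.21, adjusted p = 1.53e-06).

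Chaperones and endosomal proteases prepare the nucleic acid sensors. *Unc93b1*, whose product carries TLR7 and TLR9 to endosomes, measured 13.8, 17.3 and 15.8 CPM in Hox-WT, 1.38, 3.61 and 2.55 in Hox-URE and 1.98, 3 and 3.22 in URE-AML. Both deletion lines lay below Hox-WT and overlapped each other. It fell by 2.64 ± 0.32 on the log2 scale in Hox-URE (edgeR adjusted p = 7.36e-05) and by 2.52 ± 0.31 in URE-AML (adjusted p = 6.91e-05), the line in which *Tlr7* was high. *Lgmn*, the gene of the protease legumain, had 7 counts in all in Hox-WT and stood at 217 ± 86.8 CPM in Hox-URE and 1.54 ± 0.508 in URE-AML. The thiol reductase gene *Ifi30* (log2 1.99 ± 0.36, adjusted p = 0.00103) and the cathepsin gene *Ctsl* rose in Hox-URE. Of the 10 tested in this list, Hox-URE had 5 higher and 1 lower than Hox-WT. URE-AML had 3 higher and 1 lower than Hox-WT, and 2 in each direction relative to Hox-URE.

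The adaptors differed in how they moved. *Myd88*, the adaptor that serves most of these receptors, averaged 47.0 ± 1.2 CPM for Hox-WT, 43.4 ± 3.36 for Hox-URE and 55.2 ± 5.15 for URE-AML and was not called in any comparison (log2 -0.11 ± 0.10, 0.23 ± 0.10 and 0.35 ± 0.10). *Tirap*, which brings MyD88 to TLR2 and TLR4, was called higher in URE-AML against Hox-URE (log2 0.69 ± 0.13, edgeR adjusted p = 0.00125), but stood at 0.58, just under a fold change of 1.5, without Hox-URE library 1. *Ticam1*, the gene of TRIF, was higher in both deletion lines, by 0.66 ± 0.16 in Hox-URE (adjusted p = 0.00492) and 0.65 ± 0.16 in URE-AML (adjusted p = 0.00479). These were under a fold change of 1.5 without Hox-WT library 1 (0.55 and 0.53), the former also without Hox-URE library 3 (0.57) and the latter without URE-AML library 3 (0.53). *Ticam2*, the gene of TRAM, which links TLR4 to TRIF, moved against it. It measured 32.1, 38.9 and 37.0 CPM in Hox-WT, 0.51, 0.912 and 0.46 in Hox-URE, and 0, 0.0951 and 0 in URE-AML, with no overlap of Hox-WT with the others. *Ticam2* fell by 5.82 ± 0.30 on the log2 scale in Hox-URE (adjusted p = 2.16e-07), and the ratio of Hox-WT to URE-AML, which had 2 counts in all, was 1250 (345 to 10300).

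**Figure D5:**
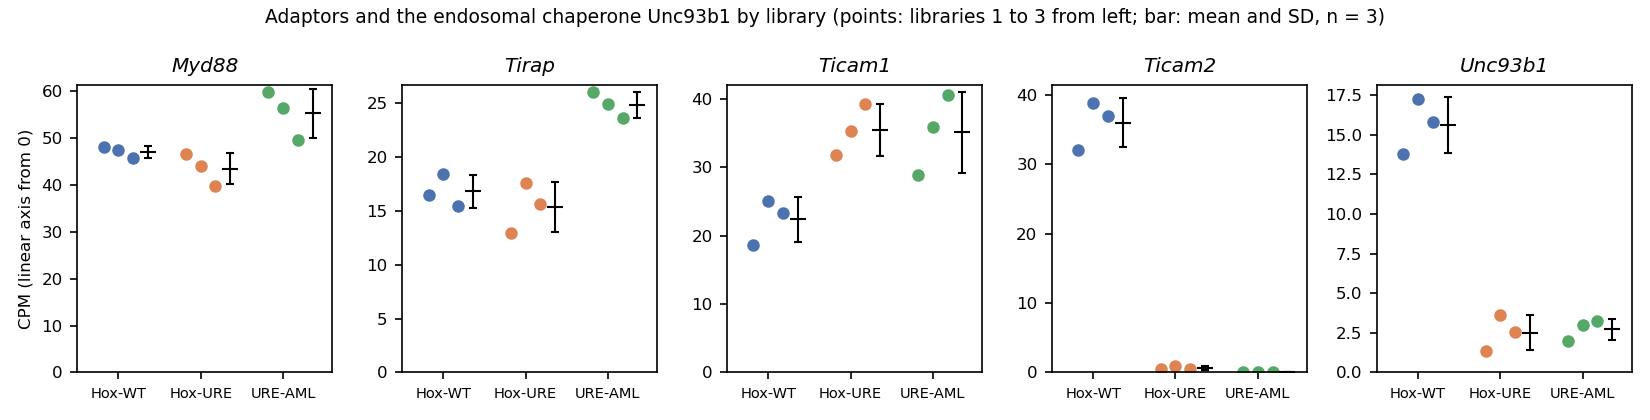
CPM of the adaptors *Myd88*, *Tirap*, *Ticam1* and *Ticam2* and the chaperone *Unc93b1* in each library on linear axes from 0 that differ between panels (points are libraries 1 to 3 of each line from left to right, bars the mean and SD, n = 3). *Ticam2* is at 32.1 to 38.9 in Hox-WT and below 1 in the 6 other libraries, while *Myd88* stays between 39.9 and 59.7.

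Among the 28 tested adaptors and kinases, Hox-URE had 7 higher and 7 lower than Hox-WT. URE-AML had 5 higher and 7 lower than Hox-WT, and 4 higher and 6 lower than Hox-URE. The tyrosine kinase gene *Syk* was lower in both deletion lines, averaging 196 ± 3.92 CPM for Hox-WT, 4.64 ± 1.00 for Hox-URE and 7.74 ± 5.52 for URE-AML (for URE-AML log2 -4.66, or -5.40 without its library 3). *Pik3ap1*, the gene of the adaptor BCAP, which dampens Toll-like receptor signals, fell by 1.42 ± 0.11 on the log2 scale in Hox-URE and was 1.31 ± 0.11 higher in URE-AML than in Hox-WT (edgeR adjusted p = 4.65e-06 and 4.47e-06). *Irak2*, a kinase-like partner of MyD88, was higher in both, by 1.52 ± 0.29 and 2.98 ± 0.29, and *Ikbke*, a kinase upstream of IRF3, was higher in URE-AML by 3.09 ± 0.18 (adjusted p = 2.93e-07).

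Of 19 tested negative regulators, Hox-URE had 7 higher and 1 lower than Hox-WT. The higher genes included *Irak3*, a brake on the IRAK kinases (log2 1.37 ± 0.14, edgeR adjusted p = 2.53e-05), *Tnfaip3*, the gene of the deubiquitinase A20 (2.53 ± 0.32, adjusted p = 0.000107), *Socs1* (2.66 ± 0.43, adjusted p = 0.000512) and *Il1rl1* (4.43 ± 0.57, adjusted p = 0.00012), which codes for the IL-33 receptor and is also a mast cell gene. *Socs1* measured 6.48, 11.7 and 25.9 CPM in the Hox-URE libraries, and without the third the difference was 1.97, still called. That of *Il1rl1* was then 3.81, also called. URE-AML had 8 higher and 4 lower than Hox-WT. *Nfkbia*, the NF-kB inhibitor and itself a target of NF-kB, was 1.97 ± 0.13 higher (adjusted p = 5.55e-07), and *Sigirr*, an inhibitory receptor of the family, fell by 2.31 ± 0.11 (adjusted p = 4.78e-08). Against Hox-URE, 3 were higher and 6 lower in URE-AML.

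Of the 12 tested transcription factors of the pathway, Hox-URE had 2 higher and 5 lower than Hox-WT. URE-AML had 2 higher and 4 lower than Hox-WT, and 2 higher and 0 lower than Hox-URE. *Irf5*, which acts downstream of MyD88, stood at 11.5 ± 3.51 CPM in Hox-WT and had 6 counts in all in Hox-URE and 2 in URE-AML. *Rel*, the gene of c-Rel, fell by 2.52 ± 0.34 on the log2 scale in Hox-URE and by 2.97 ± 0.35 in URE-AML. *Irf8*, a monocyte and dendritic cell factor, averaged 7.44 ± 1.79 CPM for Hox-WT, 0.17 ± 0.0413 for Hox-URE and 4.16 ± 2.45 for URE-AML. It fell in Hox-URE against Hox-WT (edgeR adjusted p = 2.64e-05) and was not called in URE-AML against Hox-WT (adjusted p = 0.0994), except without URE-AML library 1 (-1.36, adjusted p = 0.0146). *Jun* and *Fos* were higher in both deletion lines than in Hox-WT, *Jun* by 0.84 ± 0.17 and 1.88 ± 0.17 and *Fos* by 1.53 ± 0.34 and 1.52 ± 0.34.

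Of 22 listed genes known to respond to LPS, 11 were tested, and *Ifnb1*, *Il12b*, *Il10*, *Cxcl1* and *Cd86* had 0 counts in all 9 libraries. Hox-URE had 3 higher and 4 lower than Hox-WT. URE-AML had 6 higher and 5 lower than Hox-WT, and 5 higher and 3 lower than Hox-URE. The called genes were 63.6%, 100% and 72.7% of the 11, beside 37.2%, 43.2% and 42.7% of all genes. These counts are no more than a description, since *Tnf*, *Cxcl10*, *Ccl4* and *Nos2* passed the filter through URE-AML alone and *Ccl2* and *Icam1* through Hox-WT alone. With at least 10 counts required in every library, 2 genes of the list (*Lcn2* and *Ccl3*) were tested, with 2, 2 and 1 higher and 0 lower. *Lcn2*, which codes for a siderophore-binding protein of neutrophils, averaged 8.06 ± 1.42 CPM for Hox-WT, 133 ± 36.2 for Hox-URE and 304 ± 52.3 for URE-AML, beside the neutrophil marker sums given above. The chemokine gene *Cxcl10* was at 0.45, 0.143 and 0.484 CPM in Hox-WT, 0.146, 0 and 0.102 in Hox-URE and 17.8, 10.8 and 10.2 in URE-AML. URE-AML lay above the rest, 36.4-fold above Hox-WT by summed counts (25.3 to 54.3). *Ccl3*, another chemokine gene, was 2.76 ± 0.47 higher on the log2 scale in Hox-URE (edgeR adjusted p = 0.000758) and 2.62 ± 0.47 higher in URE-AML (adjusted p = 0.000821) than in Hox-WT. *Ptgs2*, the gene of the cyclooxygenase COX-2, measured 23.9, 11.4 and 7.05 CPM in the Hox-URE libraries and was 2.19 ± 0.45 higher on the same scale than in Hox-WT (adjusted p = 0.00229), or 1.56 without the first of them (adjusted p = 0.00493). Against Hox-WT, *Il6* fell by 5.45 ± 0.47 (log2 -6.57 without URE-AML library 3) and *Ptgs2* fell by 3.39 ± 0.60 on the log2 scale in URE-AML, and *Icam1*, at 13.7 ± 1.13 CPM in Hox-WT, had 0 counts in Hox-URE and a single count in URE-AML.

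Among the tested genes whose level ran most like that of *Cd14*, the gene of the 10 with the highest mean CPM, were *Suv39h1* (Pearson's r = 0.989), *Aurka* (0.988), *Thg1l* (0.987) and *Pwwp2b* (0.986), by log2 CPM over the 9 libraries. These r describe libraries that share their line, and 193 tested genes had r above 0.95. The span of *Suv39h1* was smaller than that of *Cd14*, with means from 99.5 CPM in Hox-URE to 147 in URE-AML.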

How the data were processed

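Stranded poly-A libraries of 3 lines, 3 per line, were quantified by the authors with salmon and summed to genes with tximport. The deposited table gives estimated counts per gene, all whole, on GRCm38. The salmon and tximport versions, the transcriptome release for these libraries and any scaling for transcript length are not given in the sources used here, and sharing of reads between similar transcripts can move a count.

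All 9 libraries were fitted in 1 edgeR 4.0.16 quasi-likelihood model (R 4.3.3, TMM factors 0.938 to 1.04, filterByExpr with a minimum count of 10, line as the only factor). SE are the log2 fold change divided by the root of F. Floors are 3 counts per library, and intervals are exact binomial at 95%. No libraries of a line agreed within sampling noise (chi-square per degree of freedom 18.1 to 99.8). Code was tested on simulated data. Figures used matplotlib 3.10.9.

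The members and lists were chosen with earlier results of these data known. Named were all 10 genes, *Spi1*, 4 other receptors, 4 adaptors, *Unc93b1*, the called genes of smallest p per list and comparison (up to 5 in each direction), and 5 genes most like *Cd14*. Some genes covered by this rule or the marker lists are not reported here. *Hoxb8* and genes named for 0 counts or as list members at the floor fall outside that rule and were named after their values were seen, as were the motifs, windows and 31-base words (from GENCODE M21 transcripts). Alternatives were 19 settings, DESeq2 1.42.0 among them.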

Additional observations from a re-analysis of the deposited data

How the results depend on the processing

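Counts of called genes were recomputed under 19 alternatives, 9 of which left out 1 library. Tested against a fold change of 1.5 instead of 0, the receptor genes called in URE-AML against Hox-WT numbered 3 instead of 5 (2 and 5 in the other comparisons), and the pathway genes called in Hox-URE against Hox-WT 26 instead of 40. Leaving out 1 library moved the former count between 3 (without URE-AML library 3) and 6 (without Hox-URE library 1 or 3). All other counts of called receptor or pathway genes, both directions together, stayed within 1.5 times under these alternatives, but the pathway genes called lower fell to 8, 11 and 9 with at least 10 counts required in every library, instead of 18, 21 and 15. Of the values of the 6 tested receptor genes, recomputed one by one under at most 17 alternatives that did not include either change of the fold threshold, 286 kept direction and call, 10 lost the call, 6 gained it and 0 changed direction. The libraries share replicate numbers between lines. Deviations of same-numbered libraries correlated at r of 0.01 to 0.271 and others at -0.211 to 0.0659. The main model did not pair them, although 17 of 18 comparisons were closest to their own number. Whether same-numbered libraries share a batch is not stated in the labels and was not tested. With the replicate number as a block the receptor genes called numbered 3, 5 and 6 and the pathway genes 39, 40 and 30 in the order of the report, the added receptor gene being *Tlr6* in URE-AML against Hox-URE (-0.82, adjusted p = 0.0429). With at least 10 counts required in every library *Tlr7* was dropped, since the Hox lines had too few, and 10022 genes in all were tested instead of 13082, with 3200, 3602 and 3553 called instead of 4873, 5648 and 5591. The floor of 0.104 to 0.153 CPM limits what can be said of *Tlr1*, *Tlr8*, *Tlr9* and *Tlr13*. Where no cause is given, the cause was not tested.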
